A study of Mus musculus with 9 samples.

Results

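Small heat shock proteins are chaperones that bind unfolding proteins and hold them until other chaperones refold them or deliver them to degradation. Muscle makes more kinds of them than most tissues, and in its fibres they bind actin, desmin, titin and filamin C, the proteins that carry the load of contraction. HSPB8 works together with the co-chaperone BAG3, which links it to HSP70 and sends damaged filamin C to autophagy at the Z-disc. Heat shock factors switch on several of these genes by binding inverted repeats of the bases GAA in their promoters.

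The genes described here are 10 of the 55471 Ensembl genes in the count table, found by their symbols. They are the small heat shock proteins Hspb1, Hspb2, Hspb3, Hspb6, Hspb7, Hspb8 and Cryab, the co-chaperone Bag3, and the stress-inducible HSP70 genes Hspa1a and Hspa1b. RNA was taken from the gastrocnemius, a calf muscle, of 5 *Shank3Δ11(−/−)* and 4 *Shank3(+/+)* mice of the C57BL/6 background at postnatal day 0 to 1, with 1 library per mouse. The *Shank3Δ11(−/−)* mice are homozygous for a germline deletion in Shank3, a scaffold protein best known from synapses, and the *Shank3(+/+)* mice carry the wild-type gene. According to the paper the deletion lowers the long SHANK3 isoforms, while some other isoforms are still made. No other allele or agent is named, and the tissue is whole muscle, in which fewer cells of a type and less RNA per cell cannot be told apart. The study's analysis left out the *Shank3Δ11(−/−)* mice KO2 and KO4 for too few reads, so KO1, KO3 and KO5 were compared with WT1 to WT4 (7 mice) and the comparison was repeated in all 9 mice. The unit of level is CPM, a count divided by the TMM-adjusted size of its library and scaled alike for all mice.

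Library totals ranged from 26444372 counts in KO5 to 40471957 in KO4. KO2 had 28211941 counts, so by reads counted on genes neither KO2 nor KO4 was the shallowest library, and raw reads were not analysed here. Shank3 itself was at 25.7 to 35.0 CPM in *Shank3Δ11(−/−)* and 32.4 to 38.5 CPM in *Shank3(+/+)*, a count over the whole gene that does not check the deletion. The 8 skeletal fibre genes on the marker list, among them Acta1 and Ckm, summed to 62842 to 68609 CPM in the 5 *Shank3Δ11(−/−)* mice and 61371 to 69450 CPM in the 4 *Shank3(+/+)* mice, and none was at 0. Adipocyte markers stood high in KO5, where the summed level was 343 CPM, against 39.2 to 65.1 CPM in *Shank3(+/+)*. For the marker Adipoq, KO1 at 9.02 and KO2 at 2.82 CPM were also above the *Shank3(+/+)* mice, of which the highest was at 1.71 CPM. KO3 and KO4 were not. Erythroid markers were highest in KO1, cartilage markers in KO4 and keratinocyte markers in WT4. Xist was high in KO3, KO5, WT3 and WT4 and low in the other 5 mice.

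Heat shock elements, the sequences that heat shock factors bind, were looked for in the promoters first. RefSeq promoters, 250 bases before to 50 after a transcription start on GRCm38.p6, were given for 8 of the 10 genes. Hspb2 and Cryab were not in this table. The shortest inverted repeat, GAANNTTC, reads the same on both strands and was present in 7 of these 8 genes. Of all 27025 genes with a promoter in the table, 2442 (9.04%) held it. The opposite order, TTCNNGAA, was in 0 of the 8 and in 9.60% of all genes. Either order was in 7 of the 8, in 17% of all genes and in 15 of 67 genes of the other chaperone lists (22.4%). The longer elements GAANNTTCNNGAA and TTCNNGAANNTTC, which contain the shorter ones, were in 0 of the 8, and 0.662% of all genes held either. These are matches of letters in a window and show no binding. The 30-base windows below carry the match in capitals, 5′ to 3′ on the strand of the gene.
Hspb1, 117 bases before the start, chr5:135887791-135887820: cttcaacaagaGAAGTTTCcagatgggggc
Hspb1, 97 bases before the start, chr5:135887811-135887840: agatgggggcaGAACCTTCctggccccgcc
Hspb6, 120 bases before its second RefSeq start, chr7:30553170-30553199: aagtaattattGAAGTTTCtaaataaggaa
Hspb3, 224 bases before the start, chr13:113663882-113663911, minus strand: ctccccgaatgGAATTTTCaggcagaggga
Hspb8, at base 3 of the transcript, chr5:116422844-116422873, minus strand: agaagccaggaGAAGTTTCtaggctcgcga
Bag3, at base 43 after the RefSeq start, chr7:128523603-128523632: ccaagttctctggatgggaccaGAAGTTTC
Hspa1a, 104 bases before the start, chr17:34972242-34972271, minus strand: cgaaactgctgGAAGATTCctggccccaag
Hspa1b, 104 bases before the start, chr17:34959324-34959353, minus strand: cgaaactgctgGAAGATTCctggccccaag

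Hspb1 was the only one of the 8 genes with 2 matches in 1 promoter, and Hspb7 the only one with none. Hspb1, Hspb6, Hspb8 and Bag3 shared the same 8 bases at one of their matches, while Hspa1a and Hspa1b had identical windows. The 250 bases before the start are shown for Hspb1, at chr5:135887669-135887918, to place its 2 matches, and for Hspb7, at chr4:141420529-141420778, as the promoter without one.
Hspb1: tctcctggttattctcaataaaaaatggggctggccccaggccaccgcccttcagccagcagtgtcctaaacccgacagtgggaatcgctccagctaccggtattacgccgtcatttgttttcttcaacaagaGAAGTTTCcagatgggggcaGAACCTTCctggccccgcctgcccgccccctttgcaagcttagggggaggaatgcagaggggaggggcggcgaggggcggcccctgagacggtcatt
Hspb7: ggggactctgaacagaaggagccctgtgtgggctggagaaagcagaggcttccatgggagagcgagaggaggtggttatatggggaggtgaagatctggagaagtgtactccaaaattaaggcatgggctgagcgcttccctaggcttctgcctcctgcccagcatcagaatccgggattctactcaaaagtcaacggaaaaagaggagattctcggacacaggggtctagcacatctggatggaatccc

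Compared per length, Hspb1 and Cryab stood above the other members, and the HSP70 genes far below all of them. Dividing by the union of a gene's exons in GENCODE M21, Hspb1 averaged 289 ± 71.2 CPM per kilobase (SD, n = 9) and Cryab 205 ± 29.7. Hspb1 was above Cryab in 8 of the 9 mice, and Cryab above Hspb7 in all 9. Hspb7 at 98.7 and Hspb8 at 97.1 CPM per kilobase were not separable, as Hspb7 was the higher in 5 of 9 mice. Hspb2 followed at 76.1, Hspb3 at 43.9, Hspb6 at 34.5 and Bag3 at 30.7 CPM per kilobase. Hspb8 was above Hspb2 in 7 mice, Hspb2 above Hspb3 in 9, Hspb3 above Hspb6 in 8 and Hspb6 above Bag3 in 7. Hspa1b was at 1.11 and Hspa1a at 0.827 CPM per kilobase. With the length of the principal transcript in place of the union, Hspb8 moved above Hspb7 and Hspb6, at 58.2 CPM per kilobase, above Hspb3, while the other positions in the order were the same.

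**Figure D1:**
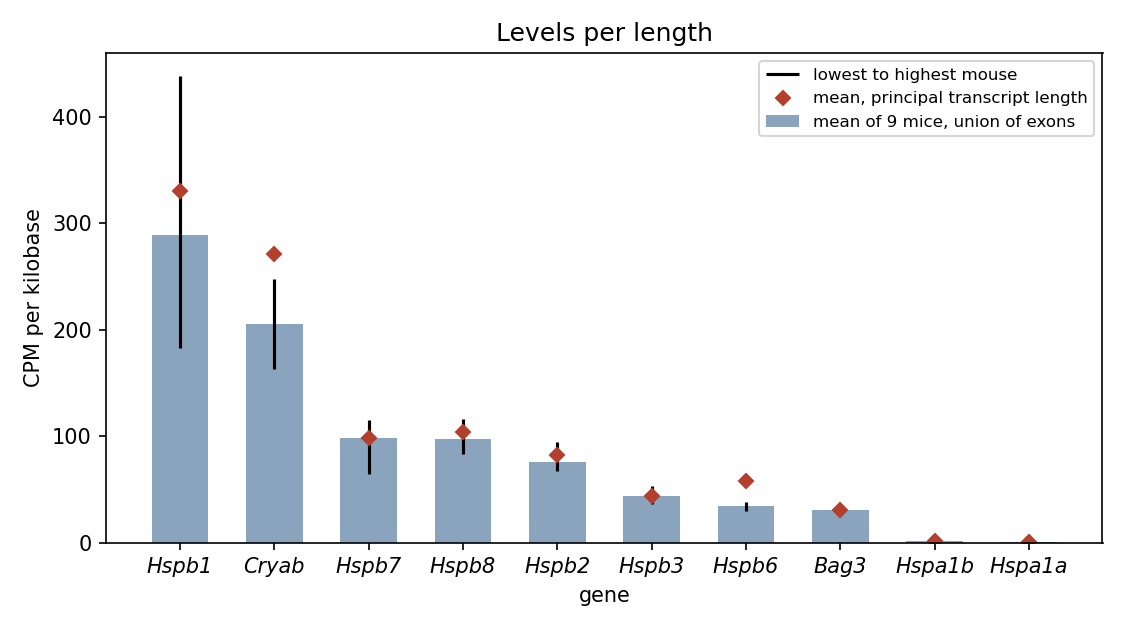
Level of each gene per length, in CPM per kilobase of the union of exons, as the mean of 9 mice (bars) with the lowest and highest mouse (lines), and the mean with the principal transcript length (diamonds). Hspb1 and Cryab are the tallest bars, and Hspa1a and Hspa1b lie close to 0.

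Hspb1 (ENSMUSG00000004951, chr5:135887919-135889563), whose protein HSP27 stabilises actin filaments, varied more between mice than any other member. It was at 279 CPM in KO1, 298 in KO2, 348 in KO3, 314 in KO4 and 189 in KO5, and at 234, 277, 289 and 452 CPM in WT1 to WT4. The lowest mouse was KO5 and the highest WT4, 2.39-fold apart. Between them, KO2, KO3 and KO4 were above WT1, WT2 and WT3, and KO1 lay between WT2 and WT3. The SD of its log2 CPM over the 9 mice was 0.35, larger than in 95.7% of the 392 genes of like level.

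Hspb7 (ENSMUSG00000006221, chr4:141420779-141425311), which binds filamin C and is needed for the ordered sarcomere of heart and skeletal muscle, followed Hspb1 at its extremes. It was at 314 CPM in KO1, 264 in KO2, 284 in KO3, 308 in KO4 and 179 in KO5, and at 263, 265, 264 and 318 CPM in WT1 to WT4. KO5 was again the lowest and WT4 the highest mouse. KO5 was at 64.6% of the *Shank3(+/+)* mean for Hspb7 and at 60.3% for Hspb1, and between 88.3% and 112% for the other 8 genes.

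Cryab (ENSMUSG00000032060, chr9:50751325-50756636) encodes αB-crystallin, which protects desmin and titin. Its levels were 280, 240, 331, 359 and 281 CPM in KO1 to KO5 and 255, 314, 299 and 367 CPM in WT1 to WT4. KO4 and WT4 were the highest mice and KO2 and WT1 the lowest, so each genotype held both ends of the range. Hspb2 (ENSMUSG00000038086, chr9:50751078-50752354) lies head to head with Cryab on the opposite strand, and its protein forms complexes with HSPB3 in differentiating muscle. It was at 57.4, 56.3, 70.0, 60.6 and 59.1 CPM in KO1 to KO5 and at 57.6, 72.7, 58.6 and 78.9 CPM in WT1 to WT4. In GENCODE M21 the exons of Hspb2 and Cryab overlap over 252 bases, 30.2% of Hspb2 and 17.0% of Cryab, and since the strand setting of the counting is not given in the sources used here, reads there cannot be told apart.

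Hspb3 (ENSMUSG00000051456, chr13:113662896-113663676) encodes the partner of HSPB2 and ranged from 28.3 CPM in KO2 to 41.6 CPM in WT2. Its *Shank3Δ11(−/−)* mice were at 29.6, 28.3, 35.7, 31.5 and 37.7 CPM and its *Shank3(+/+)* mice at 33.5, 41.6, 32.4 and 38.6 CPM. Hspb6 (ENSMUSG00000036854, chr7:30552178-30555443), known as HSP20 and as a regulator of actin in muscle, varied least of the 10 genes, from 67.8 CPM in KO3 to 87.7 CPM in KO1 with a log2 SD of 0.13. Its mice were at 87.7, 78.1, 67.8, 78.8 and 87.6 CPM in KO1 to KO5 and at 83.0, 82.1, 69.1 and 79.6 CPM in WT1 to WT4, so each genotype held 1 low mouse. A 77-base miRNA gene, Gm38670, lies on its strand within its exons, and 122 bases of its exons overlap Proser3 on the other strand.

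Hspb8 (ENSMUSG00000041548, chr5:116408491-116422864) and Bag3 (ENSMUSG00000030847, chr7:128523616-128546981) encode partners in 1 complex, but their levels did not rank the mice alike. Hspb8 was at 205, 222, 163, 168 and 188 CPM in KO1 to KO5 and at 194, 226, 167 and 172 CPM in WT1 to WT4. Bag3 was at 84.1, 74.0, 73.5, 87.0 and 72.5 CPM in KO1 to KO5 and at 70.3, 74.2, 78.6 and 93.1 CPM in WT1 to WT4. WT4 had the highest Bag3 of the 9 mice and KO4 the next, while both were among the 4 lowest mice for Hspb8. The Pearson correlation of this pair over the 9 mice was -0.36.

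Hspa1a (ENSMUSG00000091971, chr17:34969190-34972156) and Hspa1b (ENSMUSG00000090877, chr17:34956436-34959238) encode near-identical HSP70 proteins that are made under stress. Hspa1a was at 2.66, 2.58, 2.39, 2.52 and 2.50 CPM in KO1 to KO5 and at 2.28, 1.68, 2.70 and 2.76 CPM in WT1 to WT4, from 57 to 96 counts per mouse. Hspa1b was at 3.13, 3.67, 2.64, 3.10 and 2.96 CPM in KO1 to KO5 and at 3.32, 2.72, 2.90 and 3.64 CPM in WT1 to WT4, from 78 to 118 counts. WT2 was the lowest mouse for Hspa1a, KO3 for Hspa1b, and the genotypes overlapped for both. Of the 100-base windows of the Hspa1a transcript, 47.1% were found unchanged in Hspa1b, and 38.1% of the 150-base windows, so the division of reads between them is uncertain. Their promoters had the same base at 296 of 300 positions. Gm20481, a gene annotated on the opposite strand, lies wholly inside the exons of Hspa1a over 564 bases.

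**Figure D2:**
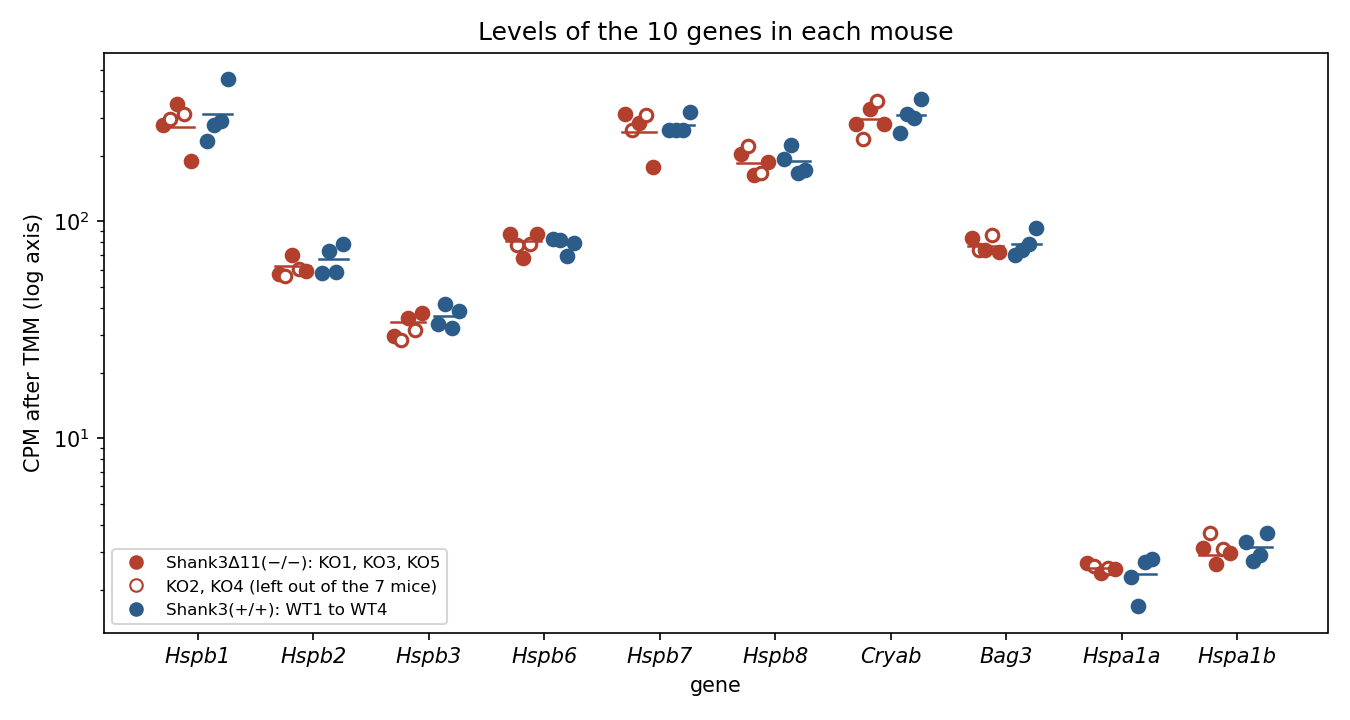
CPM after TMM of each gene (log axis) in each mouse, with *Shank3Δ11(−/−)* mice in red (KO2 and KO4, left out of the 7-mouse comparison, as open circles) and *Shank3(+/+)* mice in blue, in order of their numbers. Lines are means of KO1, KO3 and KO5 and of WT1 to WT4; the genotypes overlap for each of the 10 genes, from Hspa1a at 1.68 CPM in WT2 to Hspb1 at 452 CPM in WT4.

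The comparison of genotypes asked whether these chaperones differed in newborn muscle with the Shank3 deletion, and no member passed the test. Of the 10 genes, 8 were lower and 2, Hspb6 and Hspa1a, higher in *Shank3Δ11(−/−)* in the 7 mice, with 0 of 10 at an unadjusted p below 0.05 in edgeR, in DESeq2 and in limma-voom. Of the 21809 genes tested with edgeR, 453 (2.08%) had p below 0.05 and 0 (0%) had p below 0.05 with an FDR below 25%. This is the criterion by which the study, using limma, reported differentially expressed genes. Here DESeq2 called 6 genes by it and limma-voom 0. Hspb1 had the largest fold change. In *Shank3Δ11(−/−)* it averaged 272 ± 79.7 CPM (SD, n = 3), against 313 ± 95.3 CPM (SD, n = 4) for *Shank3(+/+)*. Its log2 fold change was -0.21 (SE 0.25, 95% interval -0.78 to 0.35), with p = 0.417 and FDR = 1.00 in edgeR's quasi-likelihood test and p = 0.514 in the exact permutation test. Hspb2 at -0.12 (SE 0.14), Hspb7 at -0.11 (SE 0.17) and Hspb3 at -0.10 (SE 0.13) came next among the small heat shock proteins. Cryab was at -0.06, Hspb8 at -0.04, Hspb6 at 0.04 and Bag3 at -0.05 on the log2 scale. Hspa1a at 0.09 (SE 0.22) and Hspa1b at -0.12 (SE 0.18) differed in sign.

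The median log2 fold change of the 10 genes was -0.08, beside -0.01 for all genes tested, and their median size 0.09, beside 0.10 for all genes. In edgeR the members had p from 0.417 to 0.758, each with FDR = 1.00. The 2-sided exact permutation test over the 35 assignments of 7 mice, which can go no lower than 0.0286, gave p from 0.429 to 0.829. The mice of the genotypes overlapped for 10 of 10 members, where 2.83% of all genes did not overlap. The widest bounds of the 95% intervals were -0.78 for Hspb1 and 0.57 for Hspa1a, so folds below 0.581 or above 1.49 lay outside the interval of each member.

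In all 9 mice, 8 of 10 were again lower in *Shank3Δ11(−/−)* and 0 had p below 0.05, with a background of 2.03% of genes at p below 0.05 and 0.681% without overlap. Hspb3 had the lowest p. Its mean was 32.6 ± 4.00 CPM (SD, n = 5) for *Shank3Δ11(−/−)* against 36.5 ± 4.31 CPM (SD, n = 4) for *Shank3(+/+)*, and its log2 fold change -0.17 (SE 0.11, p = 0.170 and FDR = 1.00 in edgeR, 2-sided exact permutation p = 0.190). Hspb1 moved to -0.13, Hspb7 to -0.04 and Hspb8 to 0.00. The bounds narrowed to -0.57 and 0.49, or 0.676-fold and 1.40-fold.

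Single mice set much of the direction in the 7 mice. Without WT4, the number of members lower in *Shank3Δ11(−/−)* fell from 8 to 5, and Hspb1 went from -0.21 to 0.02. Without KO5, Hspb7 went from -0.11 to 0.10.

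**Figure D3:**
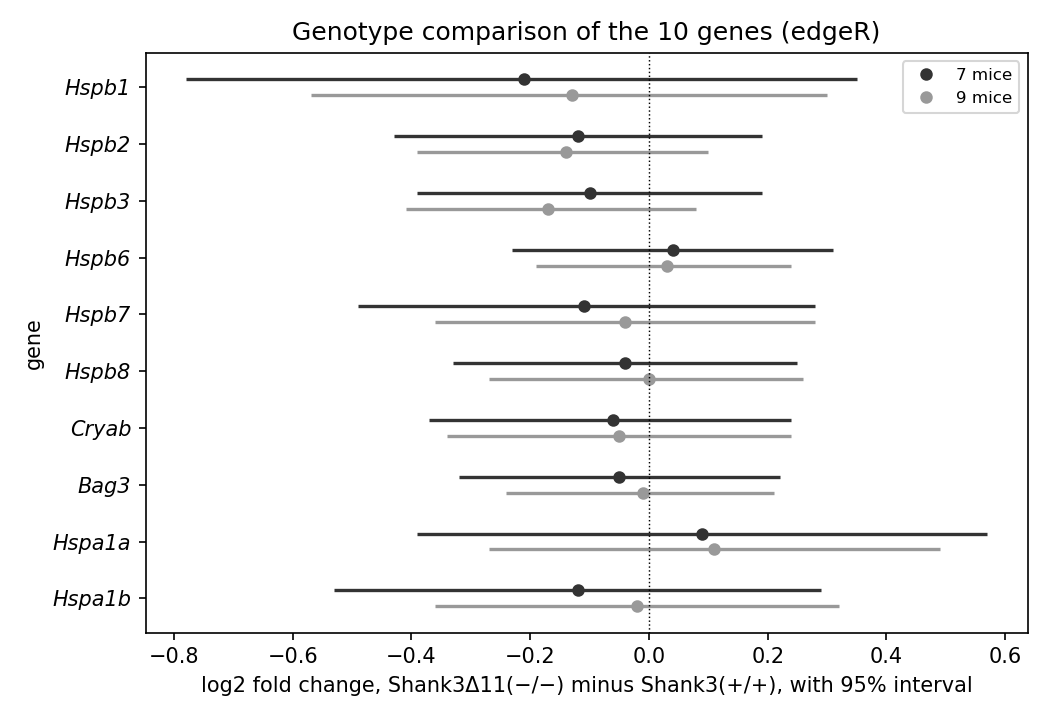
Log2 fold change of each gene, *Shank3Δ11(−/−)* minus *Shank3(+/+)*, with its 95% interval from edgeR, in 7 mice (dark) and 9 mice (grey). The interval of each of the 10 genes spans 0, and that of Hspb1, from -0.78 to 0.35 in 7 mice, is the widest.

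Mice of high and low Xist, a division seen in the counts and not given by the labels, were also compared apart, and both KO5 and WT4 are among those with high Xist. Among the 5 mice with low Xist, Hspb1 averaged 297 CPM in 3 *Shank3Δ11(−/−)* and 256 CPM in 2 *Shank3(+/+)* mice, a log2 difference of 0.22. Among the 4 with high Xist it averaged 268 CPM in *Shank3Δ11(−/−)* and 370 CPM in *Shank3(+/+)*, a log2 difference of -0.50. Hspb7 went the same way, at 0.16 and -0.36. The other high-Xist mice, KO3 and WT3, had the opposite order for both genes, at 348 and 289 CPM of Hspb1 and at 284 and 264 CPM of Hspb7, so the negative differences rest on KO5 and WT4. Only Hspb2 had the same sign in both divisions, and 4 of 10 members were lower in *Shank3Δ11(−/−)* at low Xist against 7 of 10 at high Xist. With 2 or 3 mice in each arm the difference between the divisions was not tested.

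The mean level of the slow fibre genes was lowest in KO5 and highest in WT4, as were Hspb1 and Hspb7. All 8 slow fibre markers had a negative log2 fold change in the 7 mice, 3 of them with p below 0.05 in edgeR (against 2.08% of all genes) and an FDR of 1.00. In the 9 mice all 8 were again negative and 1, Tnnc1, had p below 0.05. The markers summed to 2369 to 3813 CPM in the 5 *Shank3Δ11(−/−)* mice and 3402 to 4276 CPM in the 4 *Shank3(+/+)* mice. The 3 were Tnnc1 (log2 fold change -0.43), Myl3 (-0.41) and Tnnt1 (-0.34), the slow isoforms of troponin C, myosin light chain and troponin T. In the 2-sided exact permutation test over the 7 mice they had p = 0.0571, 0.0571 and 0.114, and in all 9 mice their log2 fold changes were -0.36, -0.26 and -0.24. KO5 had the lowest mean level of the 8 markers, -0.49 in log2 CPM centred on the 9 mice, and WT4 the highest at 0.29. Gene by gene, KO5 was the lowest mouse for 7 of the 8, all but Myl2, and WT4 the highest for 3 of the 8. KO5 was also the lowest mouse for Myh3 and Flnc, muscle genes outside this list that were named after their values were seen. On the skeletal fibre list, which holds Myh3, KO5 was the highest mouse for Myh8, Tnnt3, Mylpf and Myl1. Its mean level of the 8 genes on that list was 0.01 in log2 CPM centred on the 9 mice. Myh3, the embryonic myosin heavy chain, was at 2093 CPM in KO5 and 4169 to 5781 CPM in the other 8 mice, and Flnc, which encodes the filamin C that HSPB7 binds, at 482 CPM against 628 to 924 CPM. Over the 9 mice the Pearson correlation with the mean level of the slow fibre genes was 0.81 for Hspb1 (exact permutation p = 0.012, rho 0.63, p = 0.076) and 0.81 for Hspb7 (exact permutation p = 0.023, rho 0.57, p = 0.121). Without KO5 and WT4 it was 0.18 for Hspb1 and -0.04 for Hspb7, so both relations rest on those mice. The part of fibre type in the levels of Hspb1 and Hspb7 was not tested.

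Cryab had the highest correlations with the other measures taken of each mouse. Its correlation with the 8 skeletal fibre markers was 0.85 (exact permutation p = 0.00477, rho 0.78, p = 0.0172) and 0.68 without KO2 and WT4. Its highest correlation was with an index of transcript length, the median log2 CPM of 2162 protein-coding genes under 2000 exon bases minus that of 4653 genes over 6000, at 0.88 (exact permutation p = 0.00212, rho 0.87, p = 0.00451) and 0.76 without KO2 and WT4. The index was lowest in KO2 at -0.22 and highest in WT4 at 0.27, and its part in the level of Cryab was not tested. The immediate early genes, such as Fos and Jun, which respond to handling and stress within minutes, had a correlation of 0.83 with Cryab (exact permutation p = 0.0068, rho 0.77, p = 0.0214) and 0.83 with Bag3 (exact permutation p = 0.00707, rho 0.65, p = 0.0666). Without KO2 and KO4 these were 0.68 and 0.83. With Hspb8 the immediate early genes had a correlation of -0.80 (exact permutation p = 0.0132, rho -0.78, p = 0.0172), and -0.69 without the same mice. Over the 40 relations of the 10 genes with 4 measures, the lowest adjusted p was 0.0707 for Pearson's r and 0.122 for rho, so none passed 0.05.

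**Figure D4:**
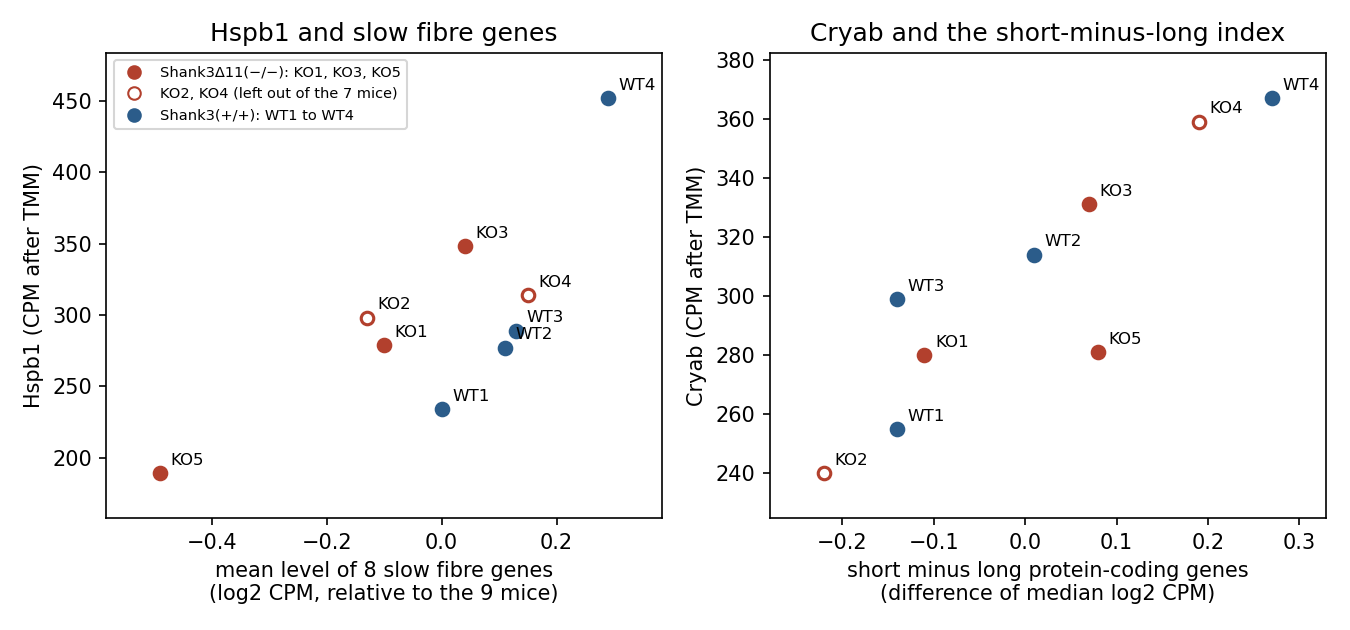
Left, CPM of Hspb1 against the mean level of 8 slow fibre genes (log2 CPM relative to the 9 mice); right, CPM of Cryab against the short-minus-long index (log2), each point 1 mouse, coloured by genotype with KO2 and KO4 open. KO5 and WT4 form the ends of the left plot, at 189 and 452 CPM of Hspb1, and Cryab runs from 240 CPM in KO2 to 367 CPM in WT4 on the right.

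The 10 genes did not move as 1 unit over the 9 mice. The median Pearson correlation of log2 CPM over their 45 pairs was 0.06, beside 0.00 over all pairs of genes tested. With a mouse left out it ranged from 0.01 (without KO3 or WT4) to 0.25 (without WT2). Correlations above 0.6 were found in 8 pairs (17.8%, against 7.94% of all pairs of genes) and below -0.6 in 1 pair (2.22%, against 7.80%). In the exact permutation test 6 pairs had p below 0.05, and 0 had an adjusted p below 0.05 over the 45 pairs, the lowest being 0.35 for r and 0.0913 for rho.

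The 8 pairs above 0.6 are described from the side of Hspb1 and Bag3 and then from that of Hspb2, a grouping made after their values were seen. Hspb1 and Hspb7 had r = 0.80 (exact permutation p = 0.016, rho 0.73, p = 0.0311), and 0.36 without KO5 and WT4, the mice at their extremes. Hspb1 and Bag3 had r = 0.69 (exact permutation p = 0.0388, rho 0.62, p = 0.0857), and 0.32 without the same mice. Bag3 and Cryab had r = 0.68 (exact permutation p = 0.0497, rho 0.60, p = 0.0968), and 0.51 without KO2 and WT4. The correlation of Hspb7 with Bag3, r = 0.65 (exact permutation p = 0.0461, rho 0.82, p = 0.0108), did not rest on the extreme mice and was 0.82 without KO5 and WT4. Hspb1 and Cryab had r = 0.63 (exact permutation p = 0.0623, rho 0.62, p = 0.0857), and 0.59 without KO5 and WT4. Hspb7 and Cryab were not among the 8, with r = 0.43 (exact permutation p = 0.261, rho 0.58, p = 0.108).

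The other 3 pairs held Hspb2, with its partner Hspb3, its neighbour Cryab, and Hspb1. Hspb2 and Hspb3 had r = 0.77 (exact permutation p = 0.0187, rho 0.83, p = 0.00827), and 0.53 without WT2 and WT4. Hspb2 and Cryab had r = 0.73 (exact permutation p = 0.0307, rho 0.90, p = 0.00203), and 0.66 without WT2 and WT4. Hspb1 and Hspb2 had r = 0.65 (exact permutation p = 0.0556, rho 0.38, p = 0.312), and 0.39 without KO5 and WT4. Residuals from the length index lowered the value for Hspb2 and Cryab to 0.34 and that for Hspb2 and Hspb3 to 0.62. The part of the shared exon bases of Hspb2 and Cryab in their correlation was not tested.

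Hspb6 and Hspb8 were in none of these 8 pairs. They had r = 0.58 with each other (exact permutation p = 0.108, rho 0.58, p = 0.108), which fell to 0.14 without KO3 and WT3. Hspb8 and Cryab had the most negative value of the 45 pairs, r = -0.63 (exact permutation p = 0.0754, rho -0.55, p = 0.133), and -0.74 without KO2 and WT2. Hspa1a and Hspa1b, which can share reads, had r = 0.50 (exact permutation p = 0.177, rho 0.45, p = 0.230).

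**Figure D5:**
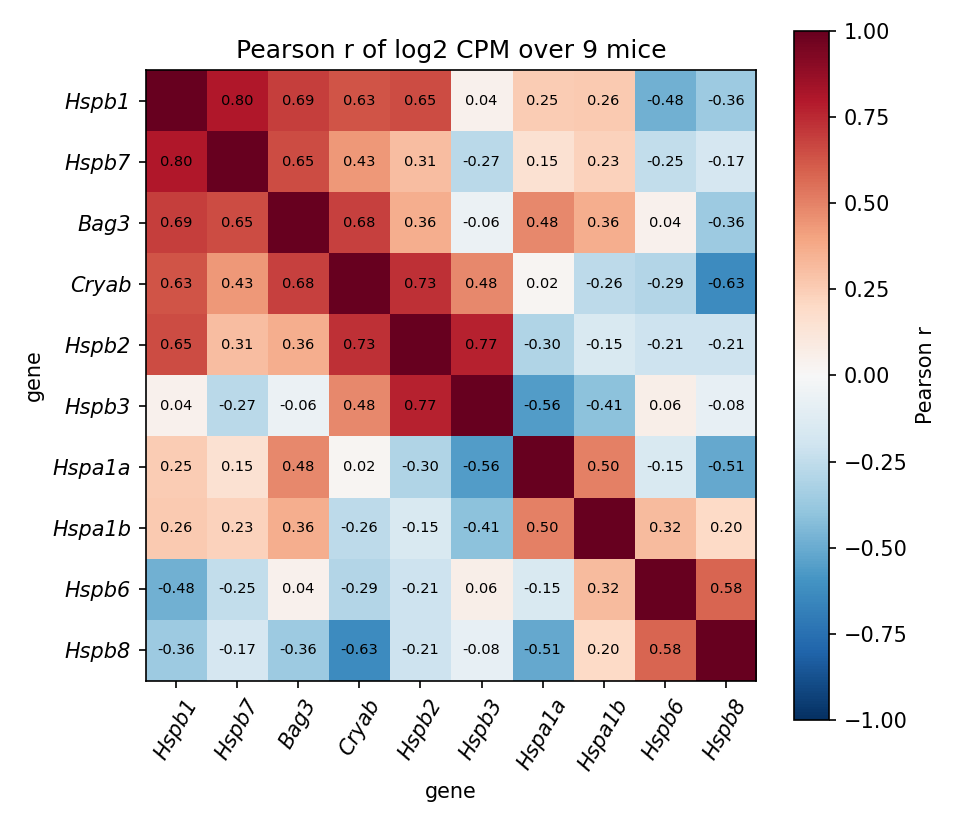
Pearson correlation of log2 CPM over the 9 mice for each pair of the 10 genes, from blue (negative) to red (positive), with the value in each field. The 8 pairs above 0.6 lie among Hspb1, Hspb7, Bag3, Cryab, Hspb2 and Hspb3 at the upper left, and Hspb8 with Cryab is the most negative field at -0.63.

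The genes whose levels were most like the mean profile of the small heat shock proteins and Bag3 included Rps7 and pseudogenes of ribosomal protein genes. Of 21725 other genes, the 5 with the highest r over the 9 mice were Rpsa-ps12 (0.97), Rps7 (0.97), AC122453.1 (0.96), Gm27597 (0.96) and Rps19-ps2 (0.96). Rps7 encodes a protein of the small ribosomal subunit, Rpsa-ps12, AC122453.1 and Rps19-ps2 are processed pseudogenes, whose reads can come from their parent genes, and Gm27597 is annotated as a miRNA gene. The median r with this profile, computed after the 5 genes were seen, was 0.78 over 79 cytoplasmic ribosomal protein genes, 0.27 over the short and -0.27 over the long protein-coding genes, beside -0.01 over all 21725 genes. The profile itself was highest in WT4, at 0.22 on the log2 scale, and lowest in KO5 at -0.15.

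For the mean profile of Hspa1a and Hspa1b, the closest gene was Gm20481 with r = 0.94, which lies within Hspa1a and was counted at 0.319 CPM. It was followed by Gm2399 (0.93), Prss23os (0.93), Gm17225 (0.92) and Gm29361 (0.92), a pseudogene and antisense genes at 0.45 to 5.7 CPM. This profile was lowest in WT2, at -0.35 on the log2 scale.

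No gene of the other chaperone lists passed the criterion either. Of 80 genes in 8 lists, 78 were tested, 28 with a positive and 50 with a negative log2 fold change in the 7 mice and a median of -0.03. With p below 0.05 in edgeR there was 1 gene, 1.28% of those tested, beside the 2.08% of all genes. This was Ptges3, which encodes the HSP90 co-chaperone p23. It averaged 82.5 ± 12.4 CPM (SD, n = 3) for *Shank3Δ11(−/−)* against 65.2 ± 8.88 CPM (SD, n = 4) for *Shank3(+/+)*. Its log2 fold change was 0.33 (SE 0.14), with p = 0.0343 and FDR = 1.00 in edgeR and p = 0.114 in the exact permutation test. In the 9 mice it was 0.36, with p = 0.0144 in edgeR and p = 0.0476 in the exact permutation test. It was the only one of the 15 HSP90 genes and co-chaperones with p below 0.05, 12 of which had a negative fold change.

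None of the other chaperone lists held a gene with p below 0.05 in edgeR. Of the 13 HSP70 and HSP110 genes, 4 had a positive and 9 a negative log2 fold change, and Hspa8, the constitutive HSP70 and the gene of highest CPM on the list, averaged 583 ± 80.1 CPM (SD, n = 3) for *Shank3Δ11(−/−)* against 487 ± 89.5 CPM (SD, n = 4) for *Shank3(+/+)*, a difference of 0.25 in log2 (SE 0.16). Of the 14 HSP40 co-chaperones 8 were positive, with Dnajc7 at -0.08. Of the 10 chaperonin genes, which fold actin and tubulin or work in mitochondria, 7 were negative, with Tcp1 at -0.03. Cct3, a chaperonin subunit named after its values were seen, had p below 0.05 only in the exact permutation test. It was at 187, 184, 189, 176 and 176 CPM in KO1 to KO5 and at 191, 194, 200 and 195 CPM in WT1 to WT4, so the genotypes did not overlap. The same held for 2.83% of all genes in the 7 mice and 0.681% in the 9 mice. The log2 fold change of Cct3 was -0.09 (SE 0.09), with p = 0.349 and FDR = 1.00 in edgeR and an exact permutation p of 0.0286, the lowest that 7 mice allow, and 0.0159 in the 9 mice. Of the 8 BAG and nucleotide exchange genes 5 were negative, with Bag6 at -0.08. Among the 4 genes of the heat shock factor list, Hsbp1, which binds the factors, was at 0.00. Of the 12 partners in the Z-disc and in chaperone-assisted autophagy, 7 were negative, and desmin (Des), the intermediate filament that Cryab protects, averaged 2243 ± 190 CPM (SD, n = 3) for *Shank3Δ11(−/−)* against 2122 ± 275 CPM (SD, n = 4) for *Shank3(+/+)*, a difference of 0.07 in log2 (SE 0.13). Of the 4 other small heat shock proteins only 2 were tested, and Hspb11 was at 0.14.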

How the data were processed

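Gene counts were used as deposited: the authors mapped the reads of 9 mice to mm10 (GRCm38) with HISAT2, kept concordantly mapped reads and counted them per Ensembl gene with featureCounts, without normalization. Of the counting, neither annotation release nor strand setting nor the treatment of multi-mapped reads is stated in the paper or the labels. The 10 genes, the gene lists and the tests were chosen with earlier results of these data known. Each sample is a mouse, and no 2 libraries were identical.

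From the counts, CPM and log2 CPM (prior count 2) were computed with TMM in edgeR 4.0.16 (R 4.3.3). After filterByExpr (minimum count 10, minimum total count 15), 21809 genes were tested for 7 mice and 21735 for 9 mice with the robust quasi-likelihood test, 2-sided, and Benjamini-Hochberg adjustment (FDR) over all genes. Correlations used exact permutation over all pairings of 9 mice (numpy 2.4.6), adjusted over 45 pairs or 40 relations. Named genes were every member, up to 3 genes per direction with p below 0.05 in each list or else its gene of highest CPM, and the 5 genes most like each mean profile; other genes were named after their values were seen. Positions and exon lengths are from GENCODE M21 and promoters from RefSeq. Motifs, the Xist division and the length index were chosen after earlier results. Alternatives were DESeq2 1.42.0, limma-voom 3.58.1, RLE size factors, no filter, no robust estimation, a replicate block, Xist as a covariate, another prior count, library size in place of TMM, residuals, and each mouse left out. Plots were made in Python 3.11.15 (matplotlib 3.10.9).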

Additional observations from a re-analysis of the deposited data

Results flagged for a closer look

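Among the 10 genes in the 5 *Shank3Δ11(−/−)* and the 4 *Shank3(+/+)* mice, 20 groups were examined for a mouse far from the others, and 1 was found. Hspb7 was at 318 CPM in WT4, while the other *Shank3(+/+)* mice lay between 263 and 265 CPM. The gap of WT4 to the nearest mouse was 0.959 of the range, above Dixon's 95% critical value of 0.829 for 4 mice. Chance flags about 1 group in 20.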

How the results depend on the processing

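The number of genes with p below 0.05 was 453, and 972 without the filter on low counts, 844 with the replicate block, and 224 (without KO5) to 968 (without KO1) when a mouse was left out. The number with an FDR below 25% as well was 0 in edgeR, 0 with limma-voom, 1 without the filter, 6 with DESeq2, 1 with Xist as a covariate, 9 with the replicate block, 2 with the block in all 9 mice, and 0 to 15 (without KO1) with a mouse left out. No member reached p below 0.05 except 1, Hspb1, among the 844 genes with the replicate block.

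The replicate numbers do not pair the mice in the labels. Deviations of mice with the same number had correlations of 0.37, 0.05, 0.36 and 0.10. KO1, KO3 and KO4 were closest to the *Shank3(+/+)* mouse of their own number, WT1, WT3 and WT4, while KO2 was closest to WT1 rather than WT2. With the replicate block in the 7 mice, where 2 numbers are shared by the genotypes' mice, 2 rather than 8 members were lower in *Shank3Δ11(−/−)*: Hspb1 was 0.26, Hspb2 0.12, Hspb7 0.18, Hspb8 0.02, Cryab 0.14 and Bag3 0.08 on the log2 scale. With the block in 9 mice Hspb1 was 0.03, Hspb6 -0.01, Hspb7 0.08 and Bag3 0.02. With Xist as a covariate Hspb8 was 0.01. With a mouse left out, the number of lower members was 5 (without WT4) to 9, and signs turned for Hspb1 (-0.43 to 0.02), Hspb6 (-0.02 to 0.15), Hspb7 (-0.27 to 0.10), Hspb8 (-0.12 to 0.05), Cryab (-0.15 to 0.04), Bag3 (-0.12 to 0.04) and Hspa1a (-0.04 to 0.18). Hspb3 and Hspa1b turned sign in none of these refits, though Hspb3 was at 0.00 without KO1, and both differed in sign between the Xist divisions. The cause of these changes was not tested. The median correlation of 0.06 was 0.16 in residuals from genotype and Xist, a covariate chosen after seeing the data, and 0.01 to 0.25 (without WT2) with a mouse left out; it was 0.21 without KO5. The 57 to 118 counts of Hspa1a and Hspa1b limit what can be said of them.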
